A study of Mus musculus with 6 samples.

Results

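The endothelin genes examined here were the 3 ligand genes Edn1, Edn2 and Edn3, the 2 receptor genes Ednra and Ednrb, and Ece1, which encodes the main endothelin-converting enzyme. They were chosen by symbol, and all 6 were found among the 24532 genes of the deposited table. RNA from newborn (PN1) mice was sequenced in 4 libraries of kidney (2 from Ahnak KO and 2 from WT) and 2 of ureter (1 from each genotype). The Ahnak KO mice carry a disruption of exon 5 of Ahnak, a gene for a large scaffold protein. The WT mice carry no such change, and the labels name no strain, sex or treatment with an agent. Per the methods, RNA was prepared from 2 to 4 organs, with no number given for each library. The methods give 2 biological replicates, and the labels do not tie a library to an animal, so the p-values below measure the spread between these libraries. In the column names each ureter library carries the same code as kidney replicate 2 of its genotype, and the meaning of the codes is not given. The 2 ureter libraries have titles that say kidney, and their tissue label says ureter.

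Endothelins are short peptides that are cut from large precursors, first by furin-like proteases and then by the converting enzyme. Ednra, on smooth muscle and pericytes, drives contraction through Gq and calcium release. Ednrb, on endothelium and collecting duct cells, drives nitric oxide release and salt excretion and clears circulating Edn1. During development Edn1 acts through Ednra on the cranial neural crest, and Edn3 acts through Ednrb on the precursors of melanocytes and enteric neurons.

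The stretch of DNA that encodes the mature peptide is shown for the 3 ligands because it is the part that the receptors bind and the part in which the ligands are most easily compared. Each stretch holds 63 bases for 21 residues in exon 2, and is given 5′ to 3′ on the GRCm38 build with the GENCODE M21 gene models. Capitals mark bases that differ from Edn1.
Edn1 (chr13:42303649-42303711, plus strand): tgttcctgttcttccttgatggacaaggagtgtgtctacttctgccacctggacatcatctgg
Edn2 (chr4:120161951-120162013, plus strand): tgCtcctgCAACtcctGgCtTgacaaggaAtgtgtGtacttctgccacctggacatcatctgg
Edn3 (chr2:174761749-174761811, plus strand): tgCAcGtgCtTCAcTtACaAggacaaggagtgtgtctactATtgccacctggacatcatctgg
Edn2 differed from Edn1 at 10 bases and 3 residues, and Edn3 differed from Edn1 at 13 bases and 6 residues. The last part of the stretch, which encodes the tail that the 3 peptides share, held no capitals. No stretch of 50 bases was shared between the transcripts of any pair of ligands, or between those of Ednra and Ednrb.

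On GRCm38, Edn1 (gene number 13614) lies on chromosome 13 at 42301476 to 42307990, Edn2 (13615) on chromosome 4 at 120161206 to 120167360 and Edn3 (13616) on chromosome 2 at 174760619 to 174784042, all on the plus strand. Ednra (13617) lies on chromosome 8 at 77663031 to 77724464 and Ednrb (13618) on chromosome 14 at 103814625 to 103844402, both on the minus strand and both with 8 exons. Ece1 (230857) lies on chromosome 4 at 137862237 to 137965229 on the plus strand, with 20 exons. Edn1, Ednra and Ece1 are each overlapped by a gene on the opposite strand (Gm47118, 4933431K23Rik and Gm13012). The kit keeps strand, but the sources used here do not say that the counting used it, so reads of these overlapping genes cannot be told apart.

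The deposited counts, which are whole-number estimates per gene, summed to between 55744703 and 66095616 in the kidney libraries, to 36410246 in the Ahnak KO ureter and to 54985927 in the WT ureter. Ahnak was counted over the whole gene in CPM (counts scaled by library size). The value was 148 and 139 CPM in the Ahnak KO kidneys and 198 and 203 CPM in the WT kidneys. It was 519 CPM in the Ahnak KO ureter and 681 CPM in the WT ureter. CPM values further on were also scaled by the trimmed mean (TMM), apart from the floor of Edn2 and the settings with library size alone. The libraries carried the markers of their tissue. The summed level of 12 kidney tubule and podocyte markers was 1608 to 1835 TPM (transcript abundance per length and library) in kidney and 12.5 and 16.4 TPM in ureter, where 8 of the 12 were listed at 0 in at least 1 library. The sum of 8 urothelial markers was 92.5 to 109 TPM in kidney and 8485 and 8930 TPM in ureter. Ahnak KO kidney replicate 1 held 176348 Xist counts, from the transcript that silences an X chromosome, and no counts (0) of the Y chromosome genes. The other 5 libraries held 17 to 36 counts of Xist and 8415 to 18055 counts of the Y chromosome genes. The 2 Ahnak KO kidney libraries thus came from different animals and differed in sex pattern, while both WT kidney libraries had the male pattern. The part of sex in the comparisons below was not tested. The ribosomal transcript Rn45s took 8.06% of the counts in the Ahnak KO ureter and 0.496% to 0.632% in the other libraries.

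Among the endothelin genes, whose levels per length are given in TPM, Ednrb stood highest in kidney and Ece1 stood highest in ureter. In each of the 4 kidney libraries the order from high to low was Ednrb, Ece1, Ednra, Edn3 and Edn1. The means over the 4 kidney libraries were 52.5 ± 8.32 TPM for Ednrb, 40.2 ± 5.15 TPM for Ece1, 27.3 ± 2.63 TPM for Ednra, 10.5 ± 0.267 TPM for Edn3 and 4.44 ± 0.990 TPM for Edn1 (SD, n = 4). Ednrb (43.1 to 60.8 TPM) and Ece1 (32.9 to 44.8 TPM) overlapped between libraries, and no other neighbours in that order did. In both ureter libraries Ece1 came first, then Ednrb and then Ednra. The ligands changed places between the ureter libraries, with Edn3 above Edn1 in the Ahnak KO ureter and Edn1 above Edn3 in the WT ureter.

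**Figure D1:**
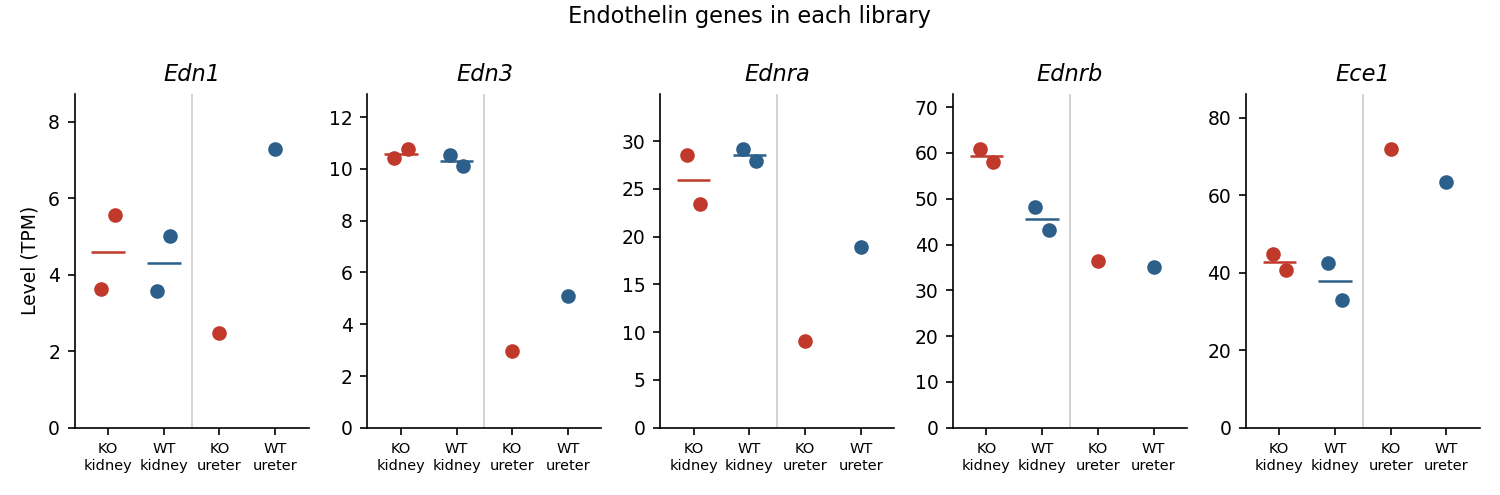
Level in TPM (vertical axis, starting at 0, a scale of its own for each gene) of 5 endothelin genes in each library, with Ahnak KO in red and WT in blue. Points are libraries and short lines are means of the 2 kidney libraries of a genotype; Edn3 sat between 10.1 and 10.8 TPM in all kidney libraries and at 2.98 and 5.10 TPM in ureter, while Ece1 sat above every kidney library in both ureters.

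The first question was how the endothelin genes differed between kidney and ureter. Ece1 was higher in ureter, by 2.2-fold, and Edn3 and Ednra were lower, by 2.03-fold and 1.57-fold. Edn1 and Ednrb did not pass the test, and Edn2 was listed at 0 everywhere. The test was edgeR's quasi-likelihood test over all 6 libraries with genotype as a term and trimmed-mean (TMM) scaling, with p-values adjusted by Benjamini-Hochberg over the 16873 genes tested. At an adjusted p under 0.05, 2 of the 5 endothelin genes tested were lower in ureter and 1 was higher, while 23.7% of all genes tested were lower and 21.4% were higher. With library size alone as the scaling, the calls over all genes moved from 3992 lower and 3603 higher to 6108 lower and 2371 higher, and the median log2 difference of all genes moved from -0.076 to -0.36. In bulk RNA, fewer cells of a type and less RNA per cell cannot be told apart.

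Edn1, the endothelial and epithelial ligand that acts on both receptors, was at 3.63 and 5.55 TPM in the Ahnak KO kidneys, 3.58 and 5.0 TPM in the WT kidneys, 2.47 TPM in the Ahnak KO ureter and 7.28 TPM in the WT ureter. The ureter libraries lay on either side of the kidney libraries, with the WT ureter highest and the Ahnak KO ureter lowest of the 6. The fitted log2 difference of ureter over kidney was 0.39 (standard error 0.424, 95% interval -0.63 to 1.41, adjusted p = 0.490 in edgeR). Within a genotype, the log2 ratio of CPM + 0.5 was 0.98 in WT and -0.39 in Ahnak KO. With WT libraries alone the fitted difference of Edn1 was 1.06 with an adjusted p of 0.0411 in edgeR, the single setting of 17 in which it passed the test.

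Edn2, a ligand best known from the ovary and gut, was listed at 0 counts in all 6 libraries. At these depths a floor of 3 counts equals 0.0454 to 0.0824 CPM, for counting error only, and the value is the table's estimate. Edn2 was therefore not tested in any comparison.

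Edn3, the ligand that acts mainly on Ednrb, was the most even of the genes in kidney, at 10.4 and 10.8 TPM in Ahnak KO and 10.5 and 10.1 TPM in WT. It was at 2.98 TPM in the Ahnak KO ureter and 5.10 TPM in the WT ureter, so both ureters were below every kidney library. The log2 difference of ureter over kidney was -1.02 (standard error 0.208, 95% interval -1.52 to -0.52, adjusted p = 0.00889 in edgeR). In log2 of CPM + 0.5 it was -1.29 within Ahnak KO and -0.68 within WT. Edn3 was lower in ureter under each of 17 alternatives and passed the test in 14. Without the Ahnak KO ureter the value was -0.71 with an adjusted p of 0.0508, and in the WT libraries alone it was -0.72 with an adjusted p of 0.0683 (edgeR). In the 4 libraries whose codes match across tissues it was -1.04 with an adjusted p of 0.0519.

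Ece1, the membrane protease that cuts the inactive precursor to the active peptide, was at 44.8 and 40.6 TPM in the Ahnak KO kidneys, 42.5 and 32.9 TPM in the WT kidneys, 71.8 TPM in the Ahnak KO ureter and 63.3 TPM in the WT ureter. Both ureter libraries were above all kidney libraries. The log2 difference was 1.14 (standard error 0.122, 95% interval 0.84 to 1.43, adjusted p = 0.000680 in edgeR). It was 1.21 within Ahnak KO and 1.05 within WT on the log2(CPM + 0.5) scale. Under the 17 alternatives the log2 difference ran from 0.81 to 1.26, and each of them passed the test.

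Ednra, the receptor that contracts smooth muscle, was at 28.5 and 23.4 TPM in the Ahnak KO kidneys, 29.1 and 28.0 TPM in the WT kidneys, 9.04 TPM in the Ahnak KO ureter and 18.9 TPM in the WT ureter. Both ureters lay below all kidney libraries, the Ahnak KO ureter much further than the WT ureter. The log2 difference was -0.65 (standard error 0.195, 95% interval -1.12 to -0.18, adjusted p = 0.0350 in edgeR). Within a genotype, on the log2(CPM + 0.5) scale, it was -1.03 in Ahnak KO and -0.29 in WT. The call rested on few libraries. Without the Ahnak KO ureter the value was -0.29 with an adjusted p of 0.230, and leaving out any 1 kidney library gave -0.56 to -0.73 with adjusted p-values of 0.0577 to 0.0783 (edgeR). Without the WT ureter it was -1.06 with an adjusted p of 0.00624, and in the 4 libraries with matching codes -0.59 with an adjusted p of 0.109.

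The lower Ednra level in ureter stood beside higher levels of the smooth muscle genes. The summed level of 8 smooth muscle markers was 501 to 613 TPM in kidney, 4419 TPM in the Ahnak KO ureter and 5799 TPM in the WT ureter, and 8 of the 8 were higher in ureter at an adjusted p under 0.05 in edgeR. The sum of 6 renal stroma and pericyte markers, cells that also carry Ednra, was 488 to 939 TPM in kidney and 365 and 381 TPM in ureter. At that threshold 2 of the 6 were lower in ureter and 2 were higher, beside 23.7% and 21.4% of all genes tested. The stroma and pericyte sum was moved by the renin gene Ren1, at 116 to 406 CPM in kidney and 5.28 and 2.64 CPM in ureter. Pdgfra and Rgs5 were higher in ureter, by 0.77 and 0.90 on the log2 scale. The part of these cells in the Ednra values was not tested.

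Ednrb, the receptor of endothelium and collecting duct, was at 60.8 and 58.1 TPM in the Ahnak KO kidneys, 48.2 and 43.1 TPM in the WT kidneys, 36.3 TPM in the Ahnak KO ureter and 35.2 TPM in the WT ureter. Both ureters were below all kidneys in TPM, and the tissues overlapped in TMM-scaled CPM, where kidney ran from 78.2 to 112 and the ureters were at 93.6 and 78.2. The log2 difference of ureter over kidney was -0.17 (standard error 0.0984, 95% interval -0.41 to 0.064, adjusted p = 0.198 in edgeR). The scaling decided the call for Ednrb, since with library size alone the difference was -0.46 with an adjusted p of 0.0216 in edgeR, and the limma fits on FPKM gave -0.44 and -0.45 with adjusted p-values of 0.0221 and 0.0251.

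In TPM, marker sums of the cells known for Ednrb also differed between tissues. The sum of 12 endothelial markers was 801 to 944 TPM in kidney and 462 and 576 TPM in ureter. At an adjusted p under 0.05 in edgeR, 4 of the 12 were lower in ureter and 2 were higher. By direction alone, 7 were fitted lower and 5 higher. Of all genes tested, 23.7% were lower and 21.4% were higher at that threshold. The lower endothelial sum was not seen in the TMM-scaled fit, where the median log2 difference of the 12 was -0.055, beside -0.076 for all genes. The sum of 7 collecting duct markers was 664 to 850 TPM in kidney and 494 and 396 TPM in ureter. At an adjusted p under 0.05 in edgeR, 5 of the 7 were lower in ureter and 1 was higher. The collecting duct markers Aqp2, Avpr2 and Atp6v1b1 were listed at 0 in both ureters. The water channel Aqp3 was the 1 called higher, at 62.1 to 80.1 CPM in kidney and 505 and 319 CPM in ureter. In ureter the next highest of the 7 was Scnn1g, at 46.3 and 69.2 CPM, so Aqp3 was the largest part of these markers there. The sum of 7 glial and neural crest markers was 17.0 to 24.4 TPM in kidney and 90.9 and 89.2 TPM in ureter. Of these, 6 of the 7 were higher in ureter at an adjusted p under 0.05 in edgeR. The part of these cells in the Ednrb and Edn3 values was not tested.

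In TMM-scaled CPM, both ureter libraries were below all kidney libraries for 2 of the 5 endothelin genes tested, Edn3 and Ednra, as they were for 32.8% of all genes tested. They were above all kidney libraries for 1, Ece1, as they were for 28.2% of all genes. With 5 genes, these counts lay near the background and are given as a description of which gene moved in which direction.

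**Figure D2:**
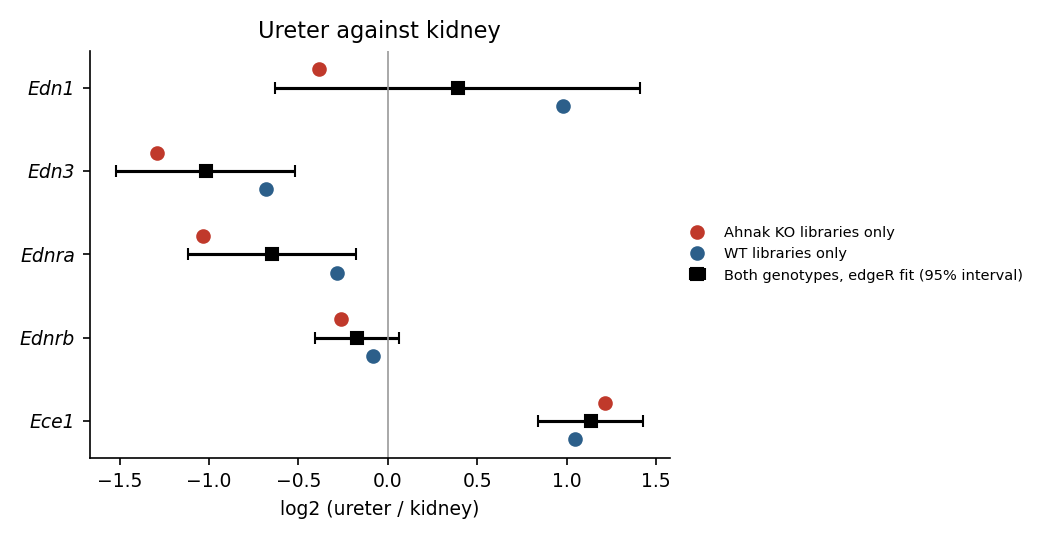
Log2 difference of ureter over kidney (horizontal axis) for 5 endothelin genes, with squares for the edgeR fit over 6 libraries, bars for its 95% interval, and red and blue points for the log2 ratio of mean CPM + 0.5 within Ahnak KO and within WT. Ece1 lay near 1 in both genotypes, Edn3 lay below 0 in both, and Edn1 lay at 0.98 in WT and -0.39 in Ahnak KO.

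The makeup of the ligand transcripts was described by shares of TPM in each library, which were not tested. Edn1 made up 25.9% and 34.0% of the ligand TPM in the Ahnak KO kidneys and 25.4% and 33.1% in the WT kidneys, and it made up 45.4% in the Ahnak KO ureter and 58.8% in the WT ureter. Edn3 was thus the main ligand transcript in the kidneys and the Ahnak KO ureter, and Edn1 was in the WT ureter. The 3 ligands together came to 14.1 to 16.3 TPM in kidney, 5.46 TPM in the Ahnak KO ureter and 12.4 TPM in the WT ureter. Ece1 stood at 2.18 to 3.18 times the ligand TPM in kidney, 13.2 times in the Ahnak KO ureter and 5.12 times in the WT ureter.

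The receptor balance was described by the ratio of Ednrb to Ednra in TPM. Ednrb was 2.13 and 2.48 times Ednra in the Ahnak KO kidneys and 1.65 and 1.54 times Ednra in the WT kidneys. It was 4.02 times Ednra in the Ahnak KO ureter and 1.86 times in the WT ureter, which lay within the range of the kidney libraries. In each tissue the Ahnak KO libraries had the higher ratio, and the Ahnak KO ureter stood highest of the 6. Ednra and Ednrb together came to 71.0 to 89.3 TPM in kidney and to 45.3 and 54.1 TPM in the Ahnak KO and WT ureters. These ratios are descriptions of the libraries and were not tested.

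**Figure D3:**
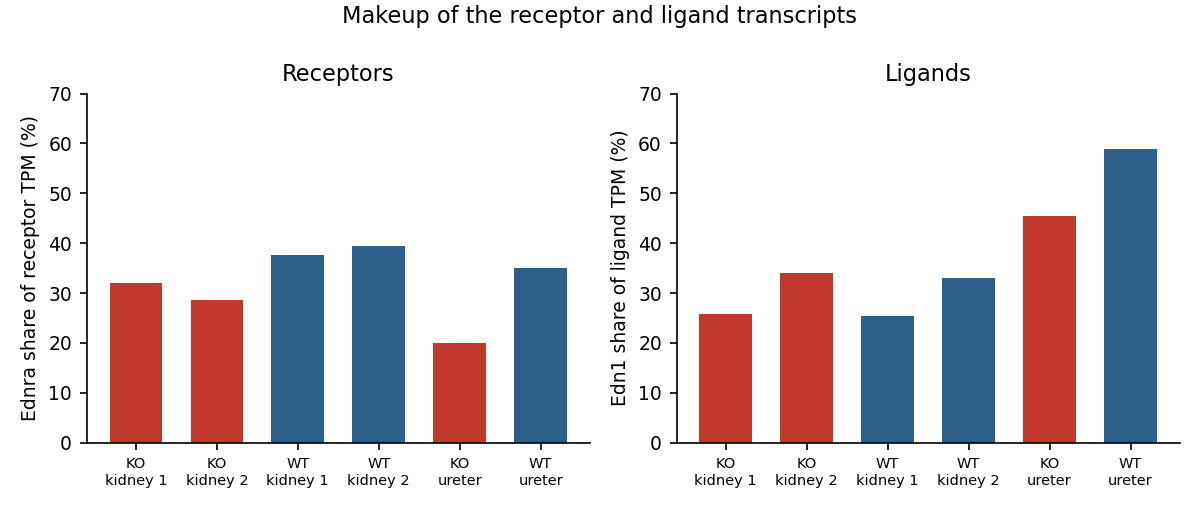
Share of Ednra in the summed TPM of Ednra and Ednrb (left) and of Edn1 in the summed TPM of the ligands (right), in percent from 0, in each of the 6 libraries, with Ahnak KO in red and WT in blue. The Ahnak KO ureter had the lowest Ednra share, 19.9%, and the WT ureter the highest Edn1 share, 58.8%.

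The second question was whether loss of Ahnak changed the endothelin genes in kidney. None of the 5 genes tested passed an adjusted p under 0.05 in edgeR's quasi-likelihood test of 2 Ahnak KO against 2 WT kidney libraries, and 0.0121% of all 16481 genes tested did (2 genes). At an unadjusted p under 0.05, 1 of the 5 passed, Ednrb, as did 1.38% of all genes. The Wald test of DESeq2 called 0 of the 5.

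In TMM-scaled CPM, Ednrb had 112 ± 0.0912 in the Ahnak KO kidneys and 83.0 ± 6.74 in the WT kidneys (SD, n = 2). It was 1.36-fold higher in Ahnak KO. Both Ahnak KO libraries were above both WT libraries, an order shared by 12.8% of all genes tested. The log2 difference was 0.44 (standard error 0.109, 95% interval 0.17 to 0.70), with an unadjusted p of 0.00662 and an adjusted p of 1.0 in edgeR. Over 14 alternatives the log2 difference of Ednrb ran from 0.36 to 0.52 and its adjusted p from 0.308 to 1.0. The lowest adjusted p, 0.308, came from DESeq2.

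The endothelial markers were read beside it. Their sum was 935 and 944 TPM in the Ahnak KO kidneys and 932 and 801 TPM in the WT kidneys, with 11 of 12 fitted higher in Ahnak KO and 0 past the adjusted threshold, and their part in the Ednrb values was not tested. The collecting duct sum was 788 and 767 TPM in Ahnak KO and 850 and 664 TPM in WT, with 6 of 7 markers fitted higher in Ahnak KO and 0 past the adjusted threshold.

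For the other genes the genotypes overlapped in kidney. The log2 difference of Ahnak KO over WT was 0.14 for Edn1 (95% interval -0.69 to 0.96), 0.070 for Edn3 (-0.32 to 0.46), -0.11 for Ednra (-0.44 to 0.22) and 0.21 for Ece1 (-0.15 to 0.56). The interval of Edn1, the gene with the fewest counts (219 to 341 in kidney), was the widest, and a difference of nearly 2-fold in Edn1 lay within it. Edn1 changed direction, to -0.24, without Ahnak KO kidney replicate 2 and to -0.085 without WT kidney replicate 1. With all 6 libraries in one fit, where 1 genotype term covers kidney and ureter together, Edn1 was at -0.35 and Edn3 at -0.14. These values are not differences of the kidneys alone.

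The third question was whether the endothelin genes differed between the Ahnak KO and the WT ureter. With 1 library per genotype there was no replicate check and no test, and the intervals below are exact binomial intervals on the count ratio that cover counting error only. Edn1 was 2.36-fold lower in the Ahnak KO ureter, from 103 counts against 459. It was the only 1 of the 5 genes compared with a fold over 2, and 0 were over 2-fold higher. Among all 16117 genes that reached 10 counts in the higher of the ureter libraries, 5.78% were over 2-fold lower and 4.44% were over 2-fold higher.

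The log2 ratio of CPM + 0.5 in Ahnak KO over WT was -1.24 for Edn1, and the plain count ratio had an interval of -1.69 to -1.06. Ednra was at 641 counts in the Ahnak KO ureter and 2034 in the WT ureter, a log2 ratio of -0.86 (interval -1.01 to -0.75). Edn3 was at 181 and 469 counts, a log2 ratio of -0.54 (interval -0.84 to -0.34). All 3 were lower in the Ahnak KO ureter by more than the counting error.

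Ednrb and Ece1 went the other way in TMM-scaled CPM. Ednrb was at 2784 counts in the Ahnak KO ureter and 4024 in the WT ureter, a log2 ratio of 0.25 (interval 0.19 to 0.33). Ece1 was at 6729 and 8992 counts, a log2 ratio of 0.37 (interval 0.32 to 0.41). These higher values depended on the scaling. With library size alone the log2 ratio was 0.063 for Ednrb and 0.18 for Ece1, while Ednra reached -1.05 and passed the 2-fold limit, as it did in FPKM (-1.07) and TPM (-1.06). The median log2 ratio of all genes was -0.021 with TMM scaling and -0.20 with library size alone, and the split over all genes moved from 931 lower and 715 higher to 1310 and 543.

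Several features of the Ahnak KO ureter library stood beside these ratios. It had the fewest counts and the largest share of Rn45s. The endothelial marker sum was 462 TPM in the Ahnak KO ureter and 576 TPM in the WT ureter, with 9 of 12 markers lower and 1 of them over 2-fold lower, and the smooth muscle sum was 4419 TPM and 5799 TPM, with 6 of 8 lower and 0 over 2-fold lower. The sum of 7 striated muscle markers was 172 TPM and 471 TPM, with 5 of the 7 over 2-fold lower. The part of these in the endothelin values was not tested, and with 1 library each the genotype and the library cannot be told apart.

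**Figure D4:**
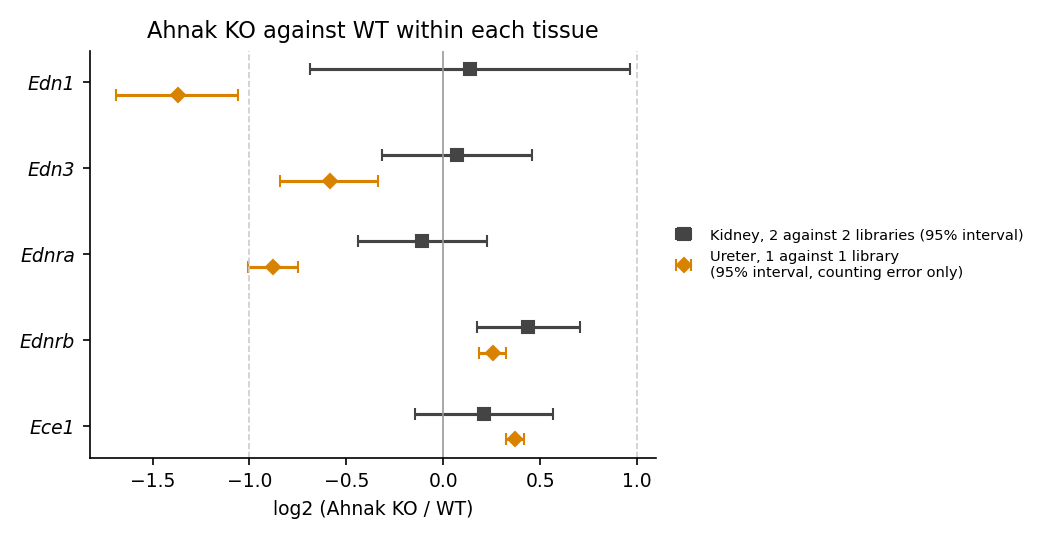
Log2 difference of Ahnak KO over WT (horizontal axis) for 5 endothelin genes, in kidney (grey squares, edgeR, 95% interval over 2 against 2 libraries) and in ureter (orange diamonds, plain count ratio of 1 against 1 library scaled by TMM, with the 95% binomial interval for counting error). Dashed lines mark 2-fold; in kidney the interval of Ednrb alone lay above 0, and in ureter Edn1, Edn3 and Ednra lay below 0.

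The genotype difference in ureter was also set against that in kidney, with the spread taken from the kidney pairs and each lone ureter library assumed to vary like them. None of the 5 endothelin genes passed an adjusted p under 0.05 in edgeR, and 0.108% of all genes tested did. Ednra had an interaction of -0.77 on the log2 scale (95% interval -1.33 to -0.21, unadjusted p = 0.0158, adjusted p = 0.285 in edgeR), and Edn1 had one of -1.50 (95% interval -2.97 to -0.042, unadjusted p = 0.0454, adjusted p = 0.393). These 2 genes were those past an unadjusted p of 0.05, as were 12.4% of all genes tested, and DESeq2 called 0 of the 5 after adjustment. Edn3 had an interaction of -0.66, Ednrb of -0.18 and Ece1 of 0.16, with adjusted p-values of 0.446, 0.792 and 0.895 in edgeR. The ureter and kidney differences of Ednrb had the same sign, but a difference between them of -0.66 to 0.30 lay within the 95% interval. The ureter value came from 1 library per genotype and was 0.063 with library size alone.

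Around the endothelin genes, a list of 44 genes was read in the same fits. It held 9 for peptide processing, 26 for receptor coupling, 8 neural crest genes and Nos3. Of the 40 tested between tissues, 7 were lower and 11 were higher in ureter at an adjusted p under 0.05 in edgeR, beside 23.7% and 21.4% of all genes tested, and the median log2 difference was 0.13 beside -0.076 for all genes. These counts lay near the background. In kidney 0 of 39 and in the interaction 0 of 42 passed. Between the ureter libraries 2 of 40 were over 2-fold lower in Ahnak KO and 1 was over 2-fold higher, beside 5.78% and 4.44% of all genes.

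Of the enzymes that process or clear endothelins, 2 of 8 tested were lower in ureter and 1 was higher (23.7% and 21.4% of all genes). Cma1, the mast cell chymase that can cut endothelin precursors, rose by 6.67 on the log2 scale (standard error 0.398, adjusted p = 6.80e-05 in edgeR), from 26 to 60 counts in kidney to 2519 and 2628 in ureter. The sum of 4 mast cell markers stood beside it, at 17.8 to 21.5 TPM in kidney and 249 to 293 TPM in ureter. Of these, 3 were higher in ureter at an adjusted p under 0.05 in edgeR and 1, Kit, was lower. Kit was at 34.5 to 42.3 CPM in kidney and at 13.1 and 5.95 CPM in the Ahnak KO and WT ureters. Mme, the neprilysin that degrades endothelins, fell by 2.21 (standard error 0.161, adjusted p = 0.000133). Kel, a protease that can activate Edn3, had 112 to 283 counts in kidney, 9 in the Ahnak KO ureter and 0 in the WT ureter, and passed the test with an adjusted p of 0.0221. With Ece1 higher, the gene for the main converting enzyme and that for a main clearing enzyme thus moved in opposite directions between the tissues. The sum of 12 kidney tubule and podocyte markers was 1608 to 1835 TPM in kidney and 12.5 and 16.4 TPM in ureter. The part of these cells in the Mme values was not tested.

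Of 26 genes for receptor coupling and desensitisation, 4 were lower and 8 were higher in ureter (23.7% and 21.4% of all genes). Rgs2, which switches off Gq, was 3.39 higher on the log2 scale (standard error 0.213, adjusted p = 8.00e-05 in edgeR). The phospholipase C genes, which turn the Gq signal of both receptors into calcium release, did not move together. Plcb4 was 1.97 higher in ureter on the log2 scale (standard error 0.114, adjusted p = 6.20e-05 in edgeR), with 1105 to 1619 counts in kidney, 1978 in the Ahnak KO ureter and 4787 in the WT ureter. Plcb1 fell by 1.54 (standard error 0.281, adjusted p = 0.00592) and Plcb2 fell by 1.15 (standard error 0.291, adjusted p = 0.0197).

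Of 8 neural crest genes, 5 were tested between tissues, of which 2 were higher and 0 were lower (21.4% and 23.7% of all genes). One of the 2, Sox10, was also among the glial and neural crest markers. Sox10, a transcription factor of neural crest and glia, rose by 4.07 on the log2 scale (standard error 0.357, adjusted p = 0.000291 in edgeR), with 22 to 35 counts in kidney, 219 in the Ahnak KO ureter and 411 in the WT ureter. Nos3, the endothelial nitric oxide synthase that acts downstream of Ednrb, fell by 0.76 in ureter with an adjusted p of 0.0479.

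**Figure D5:**
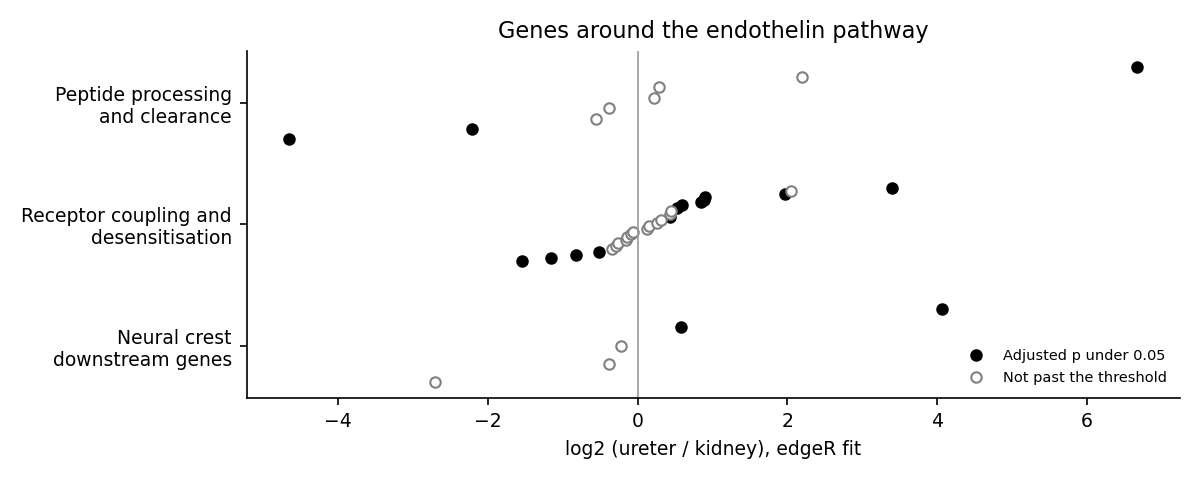
Log2 difference of ureter over kidney (horizontal axis, edgeR) for the genes around the endothelin pathway in 3 groups, with filled points past an adjusted p of 0.05 and open points not past it. The point furthest right is Cma1 at 6.67, the point furthest left is Kel, whose fitted value rests on 9 and 0 counts in ureter, and the receptor coupling genes past the threshold lie on both sides of 0.

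The genes most alike to each endothelin gene were taken by the root mean square difference of their centred log2(CPM + 0.5) profiles over the 6 libraries, among 14589 genes with a mean of at least 1 CPM. For Edn1 these were Dok3 (0.0680), 4831440E17Rik (0.110) and Tomm6os (0.133). For Edn3 they were Hnrnph1 (0.0391), Accs (0.0507) and Dixdc1 (0.0520), and for Ednra they were Tdp1 (0.0455), Spc24 (0.0560) and Nktr (0.0575). Ednrb was nearest to Selenos (0.0906), Nfkbil1 (0.0919) and Commd5 (0.0936), and Ece1 was nearest to Coro1a (0.0616), Bag3 (0.0632) and Sdc4 (0.0661). No endothelin gene was among the 3 nearest genes of another.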

How the data were processed

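RNA of newborn mouse kidney and ureter was sequenced in 6 libraries. The authors deposited, over 24532 genes, an estimated count (a whole number) and their own normalized values, FPKM and TPM. The methods name Cutadapt, STAR on GRCm39 and Cufflinks, while the submitters' processing notes list mm10, Trimmomatic 0.38, HISAT2 2.1.0 and StringTie 1.3.4b, and the sources do not settle which made the table.

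The tests had been planned for raw counts and were run on the estimated counts, by the quasi-likelihood test of edgeR 4.0.16 after filterByExpr and TMM scaling, in R 4.3.3, with 3 residual degrees of freedom between tissues and 2 in kidney and in the interaction. Standard errors are the absolute log2 fold change over the square root of F, an approximation. For the 2 ureters the log2 ratio of CPM + 0.5 was taken. Alternatives used DESeq2 1.42.0, limma 3.58.1 on log2(FPKM + 1) and log2(FPKM + 0.1), other scalings, filters, pseudocounts and library subsets, and a replicate block. Scripts were tested on simulated data. Sequences came from GENCODE M21 transcripts (GRCm38).

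The genes, lists and alternatives were chosen with earlier results of these data known. Other named genes were the 8 of the pathway list with the largest tissue change at an adjusted p under 0.05 and a mean of at least 1 CPM, and the 3 nearest in pattern. One planned group of the pathway list is not reported here. Nos3, Xist, Rn45s, Ren1, Pdgfra, Rgs5, Kit and the collecting duct genes were named after their values were seen.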

Additional observations from a re-analysis of the deposited data

Results flagged for a closer look

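Plcb2, a phospholipase C gene of the list around the endothelin genes, stood out because its order by genotype differed between kidney and ureter. Both Ahnak KO kidney libraries (5.59 and 6.18 CPM) lay below both WT kidney libraries (6.70 and 7.45 CPM). The Ahnak KO ureter (3.46 CPM, 103 counts) lay above the WT ureter (2.39 CPM, 123 counts), a log2 ratio of 0.44 in ureter. In kidney 12.8% of all genes tested had the opposite order, and the share with the order of Plcb2 was not counted. The difference between the tissues was 0.79 on the log2 scale, with an adjusted p of 0.516 in edgeR, so it did not pass the test.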

How the results depend on the processing

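The depth of Edn1 (103 to 459 counts) and the single ureter library of each genotype limit the precision, and kidney differences within the 95% intervals are not excluded. Between tissues, the direction of Edn3, Ednra, Ednrb and Ece1 was kept under each of 17 alternatives. The endothelin genes lower in ureter went from 2 to 3 with library size alone and with both limma fits on FPKM, where Ednrb joined, to 1 with tissue as the only term, to 0 in the WT libraries alone (where 2 were higher, Ece1 and Edn1) and to 0 in the 4 libraries whose column codes match across tissues, a setting chosen after seeing the data, and ran from 0, without the Ahnak KO ureter, to 2 when 1 library was left out. Over all genes, library size alone gave 6108 lower and 2371 higher, limma on FPKM gave 6360 and 6362 lower, and the code-matched libraries 2301 lower.

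In kidney, 0 endothelin genes were called under any setting. Over all genes the 2 lower calls became 1 with at least 10 counts in every library and 21 (and 25 higher) with DESeq2. They became 0 with limma on either FPKM scale. They also became 0 with all 6 libraries in one fit, whose genotype term covers the ureters too. Leaving out 1 library gave 2 to 63 lower and 1 to 24 higher. The deviations of same-numbered kidney libraries had a correlation of -0.193 over genes. It rests on 1 difference between libraries per genotype, so it cannot decide whether the replicate numbers pair the libraries. The replicate block gave 0 lower genes, while a crossed pairing, added after seeing the data, gave 1. The block changed no call of an endothelin gene.

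For the interaction, library size alone gave 17 lower genes in place of 10 and DESeq2 gave 290 lower and 205 higher, while leaving out 1 kidney library gave 2 to 125 lower and 2 to 145 higher. Between the ureters, 931 lower genes became 1638 (and 1137 higher) with CPM + 0.1, 1840 with FPKM and 2001 with TPM. With library size alone, FPKM or TPM, 2 endothelin genes were over 2-fold lower, as Ednra joined Edn1. The cause of these changes was not tested.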
